A study of Oryctolagus cuniculus with 36 samples.

Results

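In rabbit terminal ileum 3 genes stood at other levels after obeticholic acid (OCA) than after vehicle, with no overlap between the libraries: ENSOCUG00000008560 and ENSOCUG00000009455 were lower and ENSOCUG00000010659 was higher. Over all 9010 ileal genes examined, 0.377% stood wholly higher after OCA and 0.322% wholly lower. These 3 of the 9419 measured genes were chosen on that ileal contrast. They were followed here into the liver, which the choice did not use, to ask whether the shift was also seen there. Wild-type rabbits received OCA or vehicle and then underwent portal vein embolization, a procedure that closes the portal branches of part of the liver, so that both groups were embolized animals. Total RNA was sequenced from the terminal ileum, the caudal liver lobe, which was not embolized, and the cranial lobe, which was, with 6 libraries for each tissue and treatment and 36 in all. The vehicle libraries are called controls. The labels used here do not give dose, duration, age or the time after embolization. They also do not say whether the 6 libraries of a group stem from 6 animals, so the p-values reflect the spread between libraries, part or all of which may be technical.

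OCA is a bile acid derivative that activates FXR, the nuclear receptor for bile acids. In the terminal ileum bile acids are taken up from the gut lumen and returned to the liver in portal blood. Activated FXR in enterocytes limits this uptake and promotes release of an endocrine signal, and FXR in hepatocytes limits bile acid synthesis. The deposited tables pair no gene ID with a name, and 0 of the 38822 genes of the RefSeq table used here carry an Ensembl ID, so the 3 genes are described by ID, without a role. For the same reason the labelled tissues could not be checked against marker genes, and other bile acid genes could not be looked up.

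ENSOCUG00000008560 was high in control ileum and far lower after OCA. The normalized count, the reads of a gene divided by the size factor of its library, ran in controls from 12889 to 23919 with a median of 15872, and after OCA from 3010 to 9264 with a median of 6223. OCA replicate 1 was the lowest library and control replicate 2 the highest, and the lowest control lay 1.39-fold above the highest OCA library. The group means were 17132 ± 4388 in controls and 6263 ± 2213 after OCA (SD, n = 6). The difference was −1.50 ± 0.27 on the log2(normalized count + 1) scale (standard error), a 2.83-fold lower level. As the gene was picked for this difference, the value is a description and carries no test. In bulk RNA, fewer cells of a type and less RNA per cell cannot be told apart.

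ENSOCUG00000009455 was also lower after OCA. Control libraries held 485 to 858 normalized counts with a median of 648, and OCA libraries 226 to 394 with a median of 313. Control replicate 5 was the lowest control, and it still lay 1.23-fold above OCA replicate 3, the highest treated library. The means were 676 ± 139 and 314 ± 67.3 (SD, n = 6), a log2 difference of −1.11 ± 0.19 or a 2.15-fold lower level. The relative spread was alike in both groups, with a coefficient of variation of 20.6% in controls and 21.4% after OCA.

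ENSOCUG00000010659 was higher after OCA and was the least read of the 3. Control libraries held 18.0 to 35.4 normalized counts with a median of 29.8, and OCA libraries 56.6 to 90.1 with a median of 72.4. The lowest treated library, OCA replicate 1, lay 1.60-fold above the highest control, the widest gap of the 3 genes. The means were 28.4 ± 6.32 and 73.1 ± 15.3 (SD, n = 6), a log2 difference of 1.34 ± 0.24 or a 2.53-fold higher level. Only 17 to 36 reads stood behind each control value, for which counting alone gives a coefficient of variation of 16.7% to 24.3%. The observed 22.2% is within that range. After OCA there were 49 to 87 reads, a counting error of at most 14.3% and an observed 20.9%. ENSOCUG00000008560, with 2873 to 24309 reads per ileal library, has a counting error of at most 1.87%, far under its 25.6% in controls and 35.3% after OCA. These errors cover counting only, since reads without molecular identifiers are not independent molecules.

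**Figure D1:**
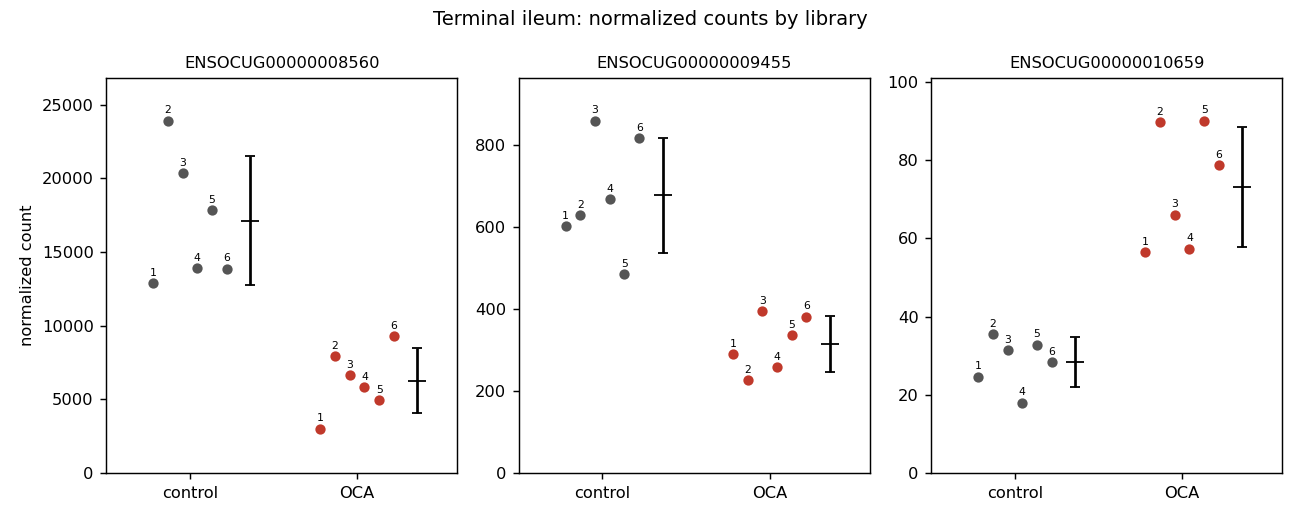
Normalized counts (y axis, linear) of the 3 genes in the 6 control and 6 OCA libraries of the terminal ileum; points are libraries labelled by replicate number, and bars are the mean ± SD. In ENSOCUG00000008560 controls start at 12889 and OCA libraries end at 9264, in ENSOCUG00000009455 they meet at 485 and 394, and in ENSOCUG00000010659 controls end at 35.4 and OCA libraries start at 56.6.

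Against the whole ileum table these differences were large but not the largest. Among the 9010 ileal genes that reached 10 normalized counts in 6 or more libraries, the median absolute log2 difference was 0.26. By absolute difference ENSOCUG00000008560 ranked 202, ENSOCUG00000010659 291 and ENSOCUG00000009455 458. Groups did not overlap in 0.377% of the 9010 genes with OCA higher and in 0.322% with OCA lower, and the 3 genes, chosen on this contrast, are among these. Over the whole table limma-trend called 0 of the 9010 genes (0%) at a Benjamini-Hochberg adjusted p under 0.05, with 688 genes at an unadjusted p under 0.05. edgeR on the recovered reads called 0 genes (0%) and DESeq2 called 80 (0.888%). Control replicate 6 and OCA replicate 1 stood apart, with 2817 and 3442 of the 9010 genes more than 2-fold off the median of their group's other libraries, against 426 to 1315 in the remaining 10, and in control replicate 6 a single gene took 27.7% of the reads. Without both, the log2 differences were −1.36 for ENSOCUG00000008560, −1.03 for ENSOCUG00000009455 and 1.41 for ENSOCUG00000010659, and limma called 7 genes. Within replicates 1 to 3 the differences were −1.77, −1.21 and 1.18, and within replicates 4 to 6 they were −1.23, −0.997 and 1.50, in the same gene order.

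In the liver ENSOCUG00000008560 had no lower mean after OCA. In the non-embolized lobe its normalized counts ran from 235 to 1705 in controls (median 692) and from 648 to 1780 after OCA (median 779), and 5 of the 6 OCA libraries lay within the control range. The means were 792 ± 548 and 937 ± 426 (SD, n = 6), a log2 difference of 0.46 ± 0.46 with a 95% interval from −0.50 to 1.41 (limma adjusted p = 0.741). In the embolized lobe controls ran from 87.0 to 1105 (median 251) and OCA libraries from 293 to 626 (median 516), all 6 within the control range. The means there were 373 ± 369 and 482 ± 135, a log2 difference of 0.77 ± 0.46 with an interval from −0.19 to 1.72 (limma adjusted p = 0.504). Both estimates were above 0, and both intervals included it. The estimate in the non-embolized lobe moved with the replicates used: it was 0.99 within replicates 1 to 3, where controls held 235 to 597, and −0.075 within replicates 4 to 6, where they held 787 to 1705. In the embolized lobe the same split gave 0.76 and 0.77.

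ENSOCUG00000009455 likewise had no lower mean after OCA in the liver. Non-embolized controls held 27.0 to 44.9 normalized counts (median 32.7) and OCA libraries 26.0 to 64.0 (median 39.9). OCA replicates 1 and 2 were the highest, and the OCA range enclosed the control range. The log2 difference was 0.32 ± 0.28, with an interval from −0.26 to 0.90 (limma adjusted p = 0.694). Embolized controls held 17.9 to 69.8 (median 55.6) and OCA libraries 45.7 to 71.9 (median 50.2), a log2 difference of 0.24 ± 0.28 with an interval from −0.35 to 0.82 (limma adjusted p = 0.773). Both intervals included 0. The sign in the embolized lobe rested on control replicate 6, the lowest library, without which the difference was −0.022, and it was −0.13 within replicates 1 to 3 and 0.60 within replicates 4 to 6.

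ENSOCUG00000010659, the gene that was higher in treated ileum, stood at few reads in the liver, between 5 and 64 per library. Non-embolized controls held 6.17 to 27.0 normalized counts (median 15.1) and OCA libraries 6.74 to 32.5 (median 20.8). OCA replicates 1 to 3 all held at least 26.3 and OCA replicates 4 to 6 at most 15.3. The log2 difference was 0.32 ± 0.45 with an interval from −0.60 to 1.24 (limma adjusted p = 0.837); it was 1.02 within replicates 1 to 3 and −0.38 within replicates 4 to 6. In the embolized lobe controls held 10.3 to 34.5 (median 25.0) and OCA libraries 7.52 to 37.5 (median 27.3). The mean was 23.5 ± 10.3 in controls and 24.4 ± 11.7 after OCA (SD, n = 6), and the log2 difference of 0.0050 ± 0.45, with an interval from −0.92 to 0.93 (limma adjusted p = 0.996), changed sign in 7 of 24 fits that left out 1 library. The counting error of a liver library ran from 12.5% at 64 reads to 44.7% at 5 reads.

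**Figure D2:**
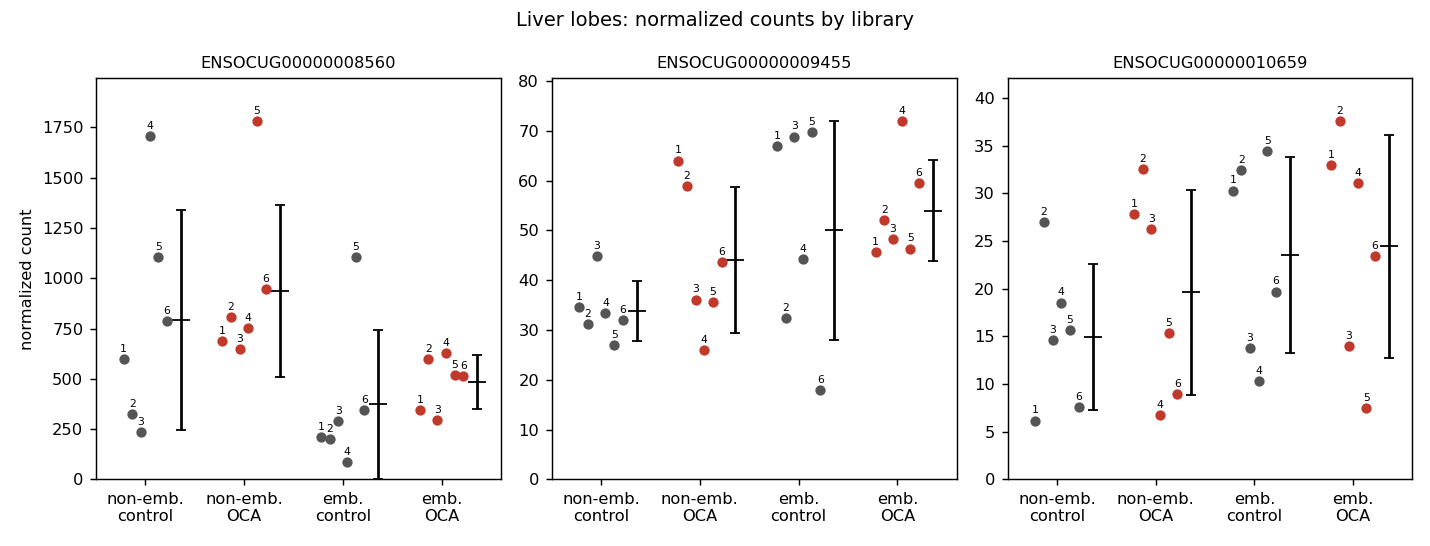
Normalized counts (y axis, linear) of the 3 genes in the non-embolized (non-emb.) and embolized (emb.) liver lobes, 6 libraries per group; points are libraries labelled by replicate number, and bars are the mean ± SD. Control and OCA libraries overlap in every panel and lobe, and ENSOCUG00000008560 reaches 1780 in non-embolized OCA replicate 5 and 1105 in embolized control replicate 5.

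None of the 3 genes passed in either lobe. Over all liver genes tested, limma-trend called 0.624% of 8653 between OCA and control without embolization, and 0.196% with it, so 0 of 3 is near that background. The groups of the 3 genes overlapped in both lobes, where OCA libraries lay wholly above controls in 0.832% of all genes and wholly below in 0.89% for the non-embolized lobe, and in 0.15% and 0.312% for the embolized lobe. The interaction of OCA and lobe was 0.31 ± 0.65 for ENSOCUG00000008560 (limma adjusted p = 0.937), −0.088 ± 0.40 for ENSOCUG00000009455 (0.970) and −0.32 ± 0.63 for ENSOCUG00000010659 (0.934), so no difference between the lobes was detectable. limma-trend called 0 of 8653 genes for the interaction (0%), with 631 at an unadjusted p under 0.05; edgeR called 0 and DESeq2 5. The ileal differences were not tested against those in liver, since the 2 tables were normalized separately and the ileal values were selected on that contrast. An absence of response in the liver was not shown. For ENSOCUG00000008560 the intervals, in the lobe without and the lobe with embolization, ended at 2.66-fold and 3.30-fold the control level. They began at 0.709 and 0.879 of it, against an ileal estimate of 0.353. For ENSOCUG00000009455 they began at 0.836 and 0.787, against 0.465. For ENSOCUG00000010659, higher in treated ileum, they ended at 2.37 and 1.90, against 2.53. These ileal estimates are those on which the genes were chosen. Their own intervals ended at 0.531 for ENSOCUG00000008560 and at 0.617 for ENSOCUG00000009455. The ileal interval of ENSOCUG00000010659 began at 1.76, which lies within both of its liver intervals.

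**Figure D3:**
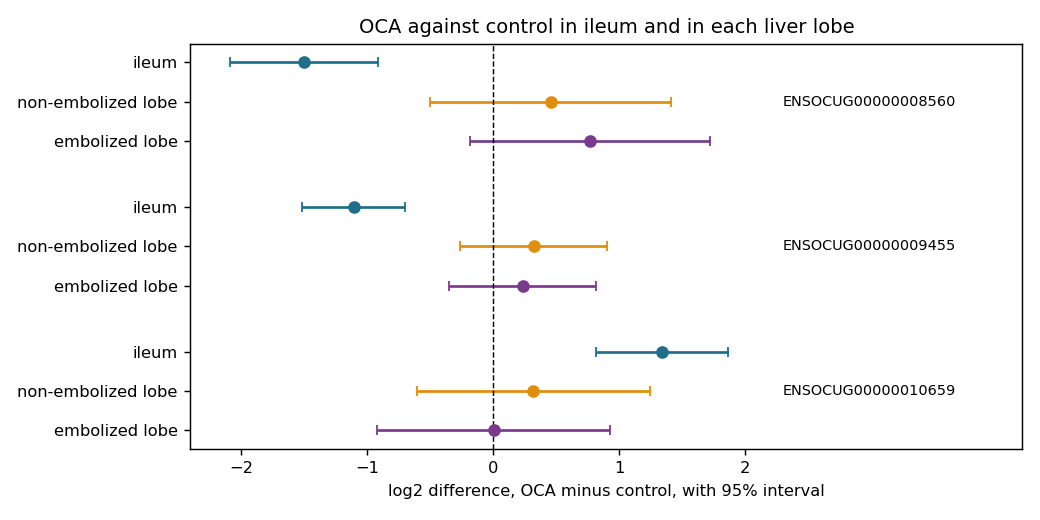
Log2 difference of OCA minus control (x axis, log2(normalized count + 1) scale) for the 3 genes in ileum and in each liver lobe; points are limma estimates and bars their 95% intervals. All 6 liver intervals include 0; the ileal estimates of −1.50, −1.11 and 1.34 are the values on which the genes were chosen and carry no test.

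Between the lobes, ENSOCUG00000008560 had a lower mean in the embolized lobe under both treatments. In controls the log2 difference of embolized minus non-embolized was −1.22 ± 0.46, with an interval from −2.18 to −0.27, which narrowly missed the threshold (limma adjusted p = 0.0538), in a comparison where 25.5% of 8653 genes were called. With a block for each treatment and replicate number it passed (limma adjusted p = 0.0352), where 32.3% of genes were called. That block pairs the OCA lobes too, although their numbers were not read as pairs. In same-numbered libraries ENSOCUG00000008560 was lower in the embolized lobe in 4 of 6 controls. The gap reached 19.6-fold in control replicate 4 (1705 and 87.0 normalized counts), while control replicate 5 held 1104 and 1105. The comparison moved both ways when 1 library was left out. The limma adjusted p fell to 0.0317 without non-embolized control replicate 2, 0.0172 without non-embolized control replicate 3 and 0.00551 without embolized control replicate 5. These fits called 25.4%, 25.8% and 23.9% of all genes, in that order. The limma adjusted p rose to 0.147 without non-embolized control replicate 4 (log2 difference −0.94) and to 0.128 without embolized control replicate 4 (−0.90). After OCA the lobes did not overlap, as non-embolized libraries started at 648 where embolized ones ended at 626. The log2 difference was −0.91 ± 0.46 (limma adjusted p = 0.138), where 32.1% of genes were called. The SD of its log2 values was 0.54 and 0.44 in the OCA lobes, against 1.07 and 1.20 in the control lobes. A fit of the 12 OCA libraries alone gave −0.91 ± 0.25 (limma adjusted p = 0.0129), where 30.7% of genes were called. That lack of overlap was shared by 7.47% of all genes, in the lower direction. The lobes differ in position as well as in embolization, and these cannot be told apart.

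**Figure D4:**
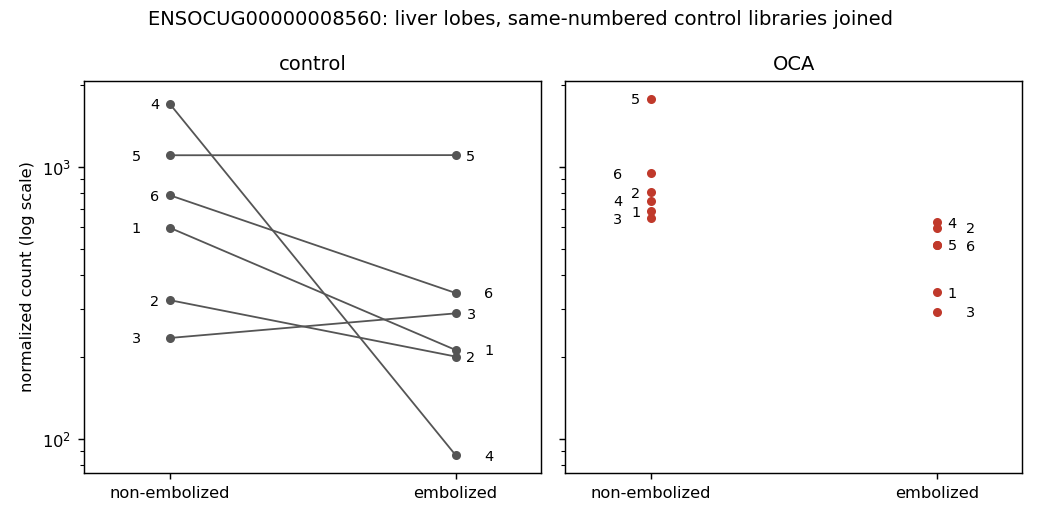
Normalized counts of ENSOCUG00000008560 (y axis, log scale) in the non-embolized and embolized lobes, for control and OCA; points are libraries labelled by replicate number, and lines join same-numbered control libraries. The lines fall in 4 of 6 controls, most steeply in control replicate 4, and the OCA libraries, which are not joined, start at 648 without and end at 626 with embolization.

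ENSOCUG00000009455 and ENSOCUG00000010659 had estimates above 0 in the embolized lobe. In controls the log2 differences were 0.42 ± 0.28 (limma adjusted p = 0.285) and 0.65 ± 0.45 (0.304), and after OCA 0.33 ± 0.28 (0.391) and 0.33 ± 0.45 (0.614). ENSOCUG00000009455 passed in controls without embolized control replicate 6 (log2 difference 0.68, limma adjusted p = 0.0437). That fit called 23.8% of 8653 genes. Of the 24 fits that left out 1 library, it was the only 1 that called ENSOCUG00000009455 between control lobes. In same-numbered control libraries ENSOCUG00000009455 was lower in the embolized lobe in 1 of 6, and ENSOCUG00000010659 in 2 of 6.

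The tissues can be set side by side in RPM, recovered reads scaled to equal library totals, a unit that does not use the separate normalization of the tables. ENSOCUG00000008560 took 1095 ± 349 RPM in control ileum, 46.4 ± 28.9 in the non-embolized control lobe, with 25.3 ± 32.0 in the embolized one (SD, n = 6), so ileum stood 23.6-fold and 43.2-fold higher. After OCA the ileum held 397 ± 97.1 and the lobes 57.5 ± 26.5 and 31.5 ± 12.9, and the ratios were 6.90 and 12.6. The lowest treated ileum library still lay 2.35-fold above the highest treated liver library. For ENSOCUG00000009455 the ileum was 20.4-fold and 13.5-fold above the lobes in controls, and 7.44-fold and 5.92-fold above them after OCA. ENSOCUG00000010659 held 1.80 ± 0.45 RPM in control ileum, 0.938 ± 0.53 in the lobe without and 1.41 ± 0.81 in the lobe with embolization, so ileum stood 1.91-fold and 1.27-fold higher, with overlapping ranges. After OCA it held 4.79 ± 1.03 in ileum, 1.28 ± 0.83 and 1.63 ± 0.91 in the lobes, ratios of 3.75 and 2.95, and every ileum library lay above every liver library. These ratios are descriptions, since a few abundant genes take different shares of the reads in each tissue. The genes were also chosen on the ileal contrast, so the change of their ratios after OCA follows in part from that choice. So does the separation of ENSOCUG00000010659 from liver after OCA. How many of all genes have ileum wholly above liver was not counted.

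The 3 genes did not vary together in a stable way. Deviations from group means on the log2 scale were correlated for the 3 pairs in each of the 3 tissues, 9 relations in all, over 12 libraries each, with 100000 permutations within groups. In ileum ENSOCUG00000008560 and ENSOCUG00000010659, whose ileal levels after OCA differed in opposite directions, deviated together (Pearson r = 0.59, permutation p = 0.0459, adjusted 0.413; Spearman rho = 0.62, permutation p = 0.0431, adjusted 0.388). This r was 0.54 without the 2 libraries farthest from the median, 0.91 within replicates 1 to 3 and 0.28 within replicates 4 to 6. The same pair had r = −0.15 in the non-embolized lobe (permutation p = 0.65), and r = 0.41 (permutation p = 0.168) in the embolized one. No relation passed after adjustment.

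The ileal gene most like each of the 3, by Pearson r of log2 values over the 12 ileum libraries among 9007 others, was sought as a description. ENSOCUG00000010579 followed ENSOCUG00000008560 most closely (r = 0.92; 0.72 for deviations from group means), and it held 7029 ± 493 normalized counts in control ileum and 3561 ± 1271 after OCA (SD, n = 6). Over the 24 liver libraries the same pair had r = −0.33, and the log2 differences of ENSOCUG00000010579 after OCA were −0.28 ± 0.14 (limma adjusted p = 0.385) without and −0.48 ± 0.14 (limma adjusted p = 0.154) with embolization. ENSOCUG00000015460 was most like ENSOCUG00000009455 (r = 0.89 in ileum and 0.062 in liver), at 1524 ± 218 in controls and 1089 ± 94.5 after OCA. ENSOCUG00000015797 was most like ENSOCUG00000010659 (r = 0.94 in ileum and 0.22 in liver), at 208 ± 12.6 and 269 ± 20.4. Each likeness joins the shift after OCA with the spread between libraries, and over the liver libraries it was weak or of opposite sign. For deviations from group means, r was −0.51, 0.33 and 0.19 in liver, in the same order of pairs, against 0.72, 0.60 and 0.67 in ileum. The partners were picked for the highest ileal r among 9007 genes, which raises the ileal values and not the liver ones. A lower r in liver would therefore follow from the pick alone, and no difference between tissues is read from it.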

How the data were processed

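The authors deposited a normalized signal, gene counts over a size factor for each library, in a table of 12 ileum libraries and, scaled separately, a table of 24 liver libraries. STAR, RSEM and DESeq2 are named in the submitters' processing notes; the sources used here name no version, genome build or annotation. Of the values of either tissue, 100% were whole multiples of the smallest value of their library (tolerance 0.01), so reads were recovered, 11.2 M to 24.5 M (megareads) per ileum library and 12.0 M to 27.3 M per liver library. The 90 pairs of libraries within groups differed beyond sampling noise (smallest chi-square per degree of freedom 38.7).

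Genes that reached 10 normalized counts in 6 or more libraries of their table were tested, 9010 in ileum and 8653 in liver, with limma-trend (limma 3.58.1, R 4.3.3) on log2(normalized count + 1), which understates changes of low genes. One fit held the 4 liver groups, which share an estimate of the spread, and calls were made at a Benjamini-Hochberg adjusted p under 0.05 over all genes tested. Errors beside log2 differences are standard errors. edgeR 4.0.16 and DESeq2 1.42.0 on recovered reads, other scalings, pseudocounts, filters, weights, a replicate block and omission of libraries were tried as alternatives. The test was also run on simulated reads, with changes planted only in genes of a higher mean than ENSOCUG00000010659 has in liver. No result given here rests on that run. The members were chosen with earlier results of these data known. The rule for named genes gave the 3 members and, for each, the ileal gene with the highest r.

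Same-numbered libraries of the 2 control lobes deviated together in 6 of 6 pairs (r = 0.14 to 0.53), so the numbers were read as pairs there, a reading that no label gives. For the OCA lobes 5 of 6 pairs exceeded 0.1 (r = −0.11 to 0.49), and they were not read so. That choice does not show that the OCA lobes are unpaired. Only 4 of 6 non-embolized control libraries had their highest r with the embolized control of their own number, and 3 of 6 did in the OCA lobes. Same-numbered control and OCA libraries of the non-embolized lobe also exceeded 0.1 in 4 of 6 pairs (r = −0.32 to 0.54). These differ in treatment, so a shared number need not mean a shared animal, and the origin of the likeness was not tested.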

Additional observations from a re-analysis of the deposited data

Results flagged for a closer look

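ENSOCUG00000008560 was flagged in single libraries: non-embolized OCA replicate 5 held 1780 normalized counts against 946 for the next library of its group, and embolized control replicate 5 held 1105 against 344. The 24 sets of 6 libraries examined covered the 3 genes in all 6 groups and the 3 most-like genes in the 2 ileum groups. Only the 2 sets named held such a library. Chance flags about 1 in 20 sets of normally distributed values. The flag was set on normalized counts, not on the log2 values of the fits, so its rate here is not known. Without embolized control replicate 5 the log2 difference of OCA minus control in the embolized lobe was 1.17 (limma adjusted p = 0.123).

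Every OCA library lay on one side of the control mean of log2 values in ileum and on the other side in liver in 3 cases. For ENSOCUG00000008560 all 6 OCA libraries were below it in ileum (log2 difference −1.50) and above it in both lobes (0.46 without and 0.77 with embolization). For ENSOCUG00000009455 all 6 were below it in ileum (−1.11) and above it in the embolized lobe (0.24). The ileal side of each case was fixed by the choice of the genes, and the difference between tissues was not tested. Against the control median instead of the mean, 4 of 6 OCA libraries of ENSOCUG00000008560 were above in the non-embolized lobe, and 2 of 6 of ENSOCUG00000009455 in the embolized lobe, so that 2 of the 3 cases rest on the choice of reference.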

How the results depend on the processing

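Of 576 liver values under other settings, 540 kept their direction and their side of the threshold, 26 changed sign, none of them called, and 10 newly passed, all between lobes. The 81 ileal values, untested, kept their sign: they ran from −1.77 to −1.22 for ENSOCUG00000008560, from −1.21 to −0.98 for ENSOCUG00000009455 and from 1.18 to 1.50 for ENSOCUG00000010659. OCA against control in liver was called under no setting.

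With sample quality weights the lobe difference of ENSOCUG00000008560 passed in controls (−1.50) and after OCA (−1.07), as did that of ENSOCUG00000009455 in controls (0.69), while OCA minus control in the embolized lobe was −0.0039 for ENSOCUG00000009455 and −0.17 for ENSOCUG00000010659. In controls ENSOCUG00000008560 also passed with a term for replicates 1 to 3 against 4 to 6 (−1.22). It passed as well with the block for treatment and replicate number (−1.22, limma adjusted p = 0.0352). The replicate block changed no other call. After OCA ENSOCUG00000008560 passed with only its 2 groups fitted (−0.91), where 30.7% of genes were called. Within replicates 1 to 3, signs turned for ENSOCUG00000009455 in OCA minus control of the embolized lobe (−0.13) and between OCA lobes (−0.081), for ENSOCUG00000010659 between OCA lobes (−0.14), and for the interaction of ENSOCUG00000008560 (−0.23). Within replicates 4 to 6 they turned for OCA minus control in the non-embolized lobe (ENSOCUG00000008560 −0.075, ENSOCUG00000010659 −0.38), for ENSOCUG00000010659 in the embolized lobe (−0.10) and for the interaction (ENSOCUG00000009455 0.44, ENSOCUG00000010659 0.28). Equal library totals turned the interaction of ENSOCUG00000009455 (0.039) and moved the median of all genes in the embolized lobe to 0.15; relative to that median, ENSOCUG00000008560 stood 0.75 higher after OCA, ENSOCUG00000009455 0.21 higher and ENSOCUG00000010659 0.019 lower. Causes were not tested.

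Leaving out 1 library gave −0.022 to 0.36 for ENSOCUG00000009455 and −0.19 to 0.29 for ENSOCUG00000010659 in OCA minus control of the embolized lobe, the latter below 0 without control replicates 3, 4 or 6 or OCA replicates 1, 2, 4 or 6. Between control lobes it gave −1.63 to −0.90 for ENSOCUG00000008560 and 0.30 to 0.68 for ENSOCUG00000009455. The interaction ran from −0.017 (without embolized control replicate 4) to 0.71 for ENSOCUG00000008560. For ENSOCUG00000009455 it ran from −0.34 to 0.036, above 0 without non-embolized OCA replicates 1 or 2 or embolized control replicates 1, 3 or 5.

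Genes called ran from 0 to 349 in ileum, from 5 to 398 for OCA in the non-embolized lobe (54 as reported), from 0 to 298 in the embolized lobe (17), from 568 to 3443 between control lobes (2210) and from 880 to 3317 between OCA lobes (2781). A filter of 50 dropped ENSOCUG00000010659 in liver.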
